A study of Lactuca sativa with 12 samples.

Results

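The comparison described here is that of 'Salinas' lettuce plants held for 7 d at 4 °C with warm-grown plants of the same cultivar sampled before the cold treatment (0 h). It rests on 6 of the 12 RNA-seq libraries of the series, 3 per group, and on the 21726 of 23933 genes that reached at least 0.5 CPM (reads per gene scaled to a library total of 1000000) in at least 2 of these 6 libraries. All plants had reached 18 days of age at the start of the cold and grew under a 16 h photoperiod. The 0 h plants were kept at 20 °C with 350 to 400 µmol m−2 s−1 of light, and the 7 d plants at 4 °C with about 100 µmol m−2 s−1. Temperature, light intensity and age therefore changed together and cannot be told apart in these libraries. The libraries were made from the whole above-ground part of the plants, so that fewer cells of a type and less RNA per cell cannot be told apart either.

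Plants adapted to cool seasons survive frost better once they have spent some days in the chill, and this adjustment is termed cold acclimation. The CBF/DREB1 proteins, transcription factors of the AP2/ERF family, are induced within hours of cold and activate cold-regulated (COR) genes, among them genes for dehydrins and other hydrophilic proteins that protect membranes and proteins. Over days, cold-grown leaves also rebuild their photosynthetic apparatus, their carbohydrate metabolism and their capacity to synthesise proteins. Gene IDs are given as Ls, the linkage group, g and the number, with 0 for sequences outside the linkage groups.

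The libraries held 18709992 to 25952306 reads on the genes of the table, and 1 read corresponded to 0.0385 to 0.0534 CPM. Correlated over the genes of a library, which do not replicate each other, the log2 values gave a Pearson's r of 0.991, 0.991 and 0.995 between the 7 d replicates and of 0.993 between 0 h replicates 1 and 2. It was 0.975 and 0.978 for the pairs with 0 h replicate 3, so that this library stands somewhat apart. The leaf genes expected in above-ground tissue were abundant in every library. In the scaled CPM explained below, the 5 described Rubisco small chain genes summed to 32808 to 38222 CPM at 0 h and 7621 to 8470 CPM at 7 d. In the same scaled CPM, the 8 xylem genes summed to 70.4 to 78.9 CPM at 0 h and 25.2 to 30.0 CPM at 7 d. They are described as Laccase-11, XCP2, IRX7, IRX9 and IRREGULAR XYLEM 15.

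The make-up of the libraries differed between the groups. The 20 most abundant genes of each library, ranked by reads and not per length, held 14.6%, 13.8% and 14.8% of the reads at 0 h and 8.98%, 8.47% and 8.46% at 7 d. The groups did not overlap, with means of 14.4% ± 0.518 and 8.64% ± 0.297 (SD, n = 3; two-sided exact permutation test, p = 0.1, the smallest that 3 against 3 allows). When a few very abundant transcripts fall, every other gene gains in CPM without a change of its own. CPM values were therefore divided by factors of the trimmed mean of M values method (TMM), computed on the reads recovered from the CPM values. The factors were 0.949, 0.983 and 0.884 at 0 h and 1.03, 1.09 and 1.08 at 7 d. All levels below are these scaled CPM values, and log2 fold changes are 7 d minus 0 h on the scale of log2(scaled CPM + 1), which understates the change of genes with few reads.

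**Figure D1:**
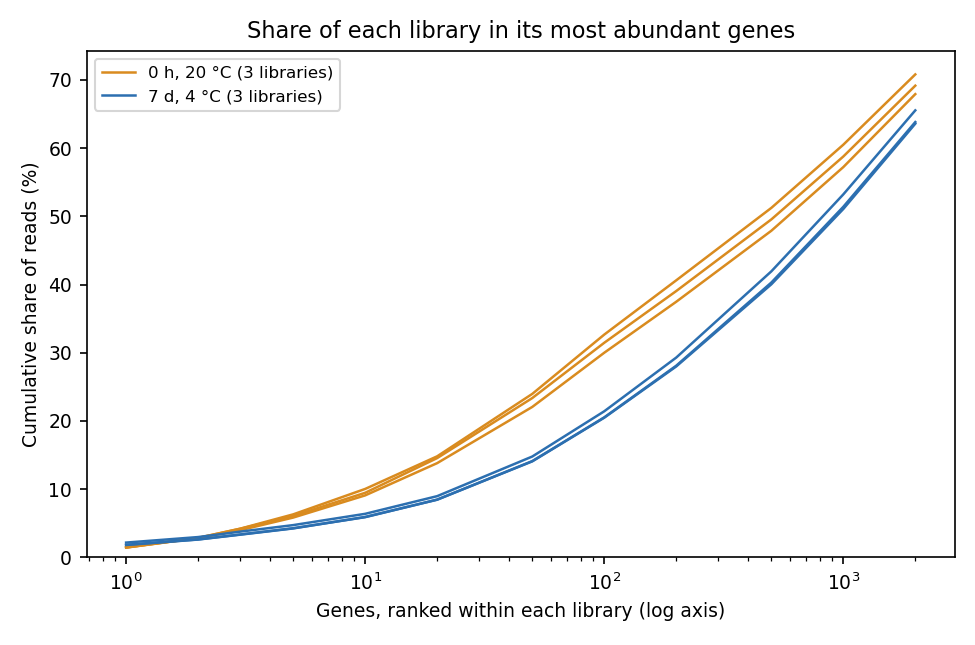
Cumulative share of the reads (%) held by the most abundant genes of each library, with genes ranked within the library on a log axis. Each line is a library, orange for 0 h and blue for 7 d. At rank 20 the 0 h lines lie at 13.8 to 14.8% and the 7 d lines at 8.46 to 8.98%.

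The effect of this scaling was large. Over all genes, the log2 fold change had a median of 0.01 with TMM and 0.16 under library-size scaling, that is, with the CPM values as deposited. TMM takes most genes as unchanged, so its median follows in large part from the method. A rise of most genes at 7 d and an effect of the library make-up cannot be told apart here. With TMM, 936 genes were upregulated and 1069 were downregulated at 7 d, where a call in limma needed at least a 2-fold change (1 on the log2 scale) and an adjusted p (Benjamini-Hochberg) of at most 0.01. These were 4.31% and 4.92% of the genes tested, 9.23% together. Upregulated genes made up 46.7% of the calls with TMM, 44.4% with RLE factors and 41.5% with upper-quartile factors, but 66.3% under library-size scaling, where 1482 genes were upregulated and 752 downregulated. Under library-size scaling 546 further genes passed as upregulated, and 317 genes that were downregulated with TMM did not pass. The edgeR quasi-likelihood test on the recovered reads called 1233 genes upregulated and 1528 downregulated, which were 5.68% and 7.03% of the genes. It shared 1997 calls with limma, 99.6% of the limma calls and 72.3% of its own.

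**Figure D2:**
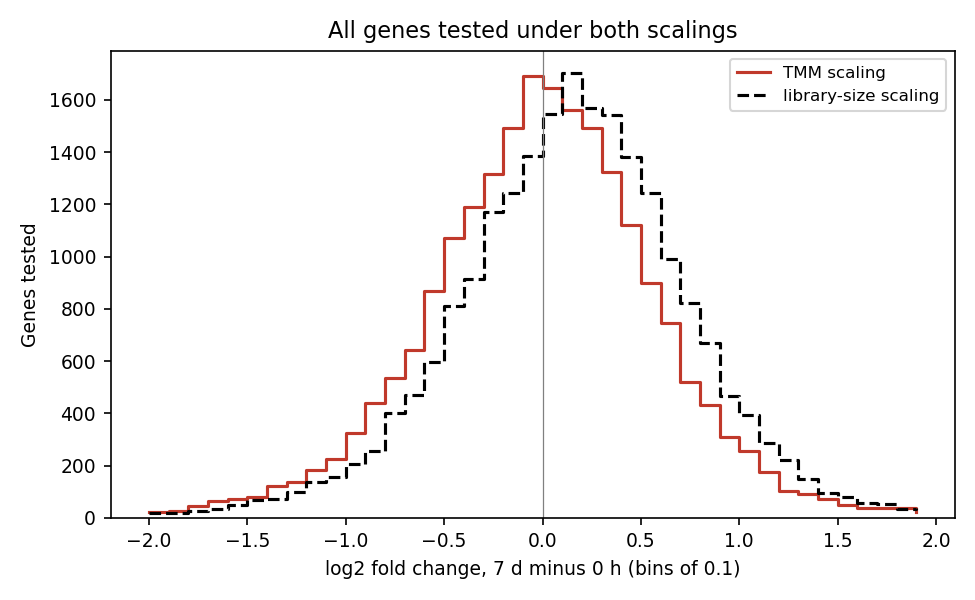
Number of genes tested (vertical axis) per bin of 0.1 in log2 fold change, 7 d minus 0 h (horizontal axis), between -2 and 2. The red line is TMM scaling, with a median of 0.01, and the dashed black line library-size scaling, with a median of 0.16.

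Most changes were modest. The median log2 fold change was 1.27 among the upregulated genes and -1.31 among the downregulated genes. A log2 fold change of at least 2 was reached by 111 upregulated and 127 downregulated genes, of at least 4 by 14 and 6, and of at least 5 by 10 and 0. The downregulated genes had a median of 18.3 CPM at 0 h, against 8.51 CPM for the upregulated genes and 11.3 CPM for all genes tested. At 7 d the order was the reverse, with 5.74, 25.6 and 11.4 CPM. The genes were grouped by this same difference, so these medians and the shares below follow in part from the calls. The downregulated genes together held 20.6 to 22.0% of the scaled total in the 0 h libraries and 7.38 to 7.82% at 7 d. The upregulated genes held 1.97 to 2.16% and 6.68 to 6.95%. All called genes had groups that did not overlap. That is also true of 28.8% of all genes tested in the upward and 26.3% in the downward direction, so it separates the called genes little from the rest. With each of the 6 libraries left out in turn, 1324 of the 2005 calls (66.0%) passed every time.

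**Figure D3:**
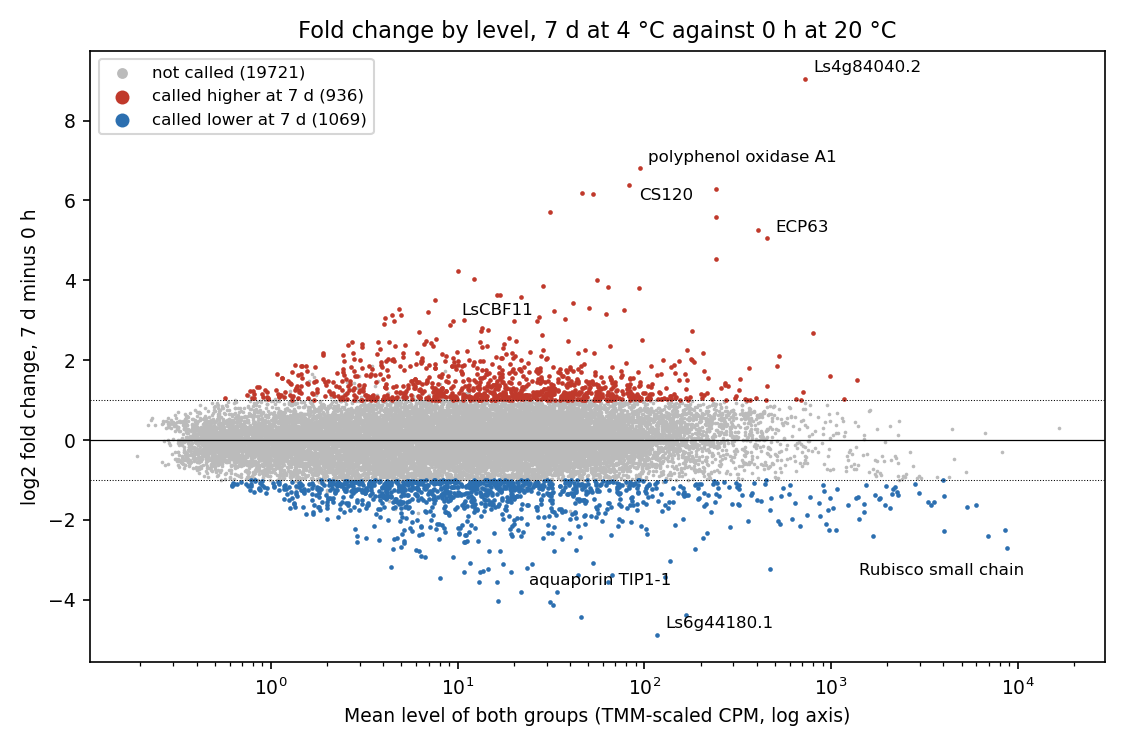
Log2 fold change (7 d minus 0 h, vertical axis) against the mean of both groups in TMM-scaled CPM (log axis), a point for each of the 21726 genes tested. Red points are the 936 upregulated and blue points the 1069 downregulated genes, and dotted lines mark log2 fold changes of -1 and 1. The most abundant called genes lie below 0.

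A small number of genes that were nearly silent in the warm reached high levels at 7 d. The gene with the largest log2 fold change, Ls4g84040.2, has no description and was at 1.19, 1.81 and 2.26 CPM at 0 h and at 1687, 1271 and 1398 CPM at 7 d. Its log2 fold change was 9.05 (standard error 0.18, limma adjusted p = 6.69e-08), and it also gained the most CPM of all upregulated genes. Ls0g6400.1, described as Polyphenol oxidase A1, an enzyme that oxidises phenolic compounds and browns cut lettuce tissue, was at 0.540, 0.554 and 0.970 CPM at 0 h and at 160, 206 and 198 CPM at 7 d. Its log2 fold change was 6.81 ± 0.16 (standard error). Next came the dehydrin-like Ls3g76921.1 (6.38), the undescribed Ls4g84821.1 (6.29) and the undescribed Ls9g111061.3 (6.18). Ls4g84821.1 went from 5.14 ± 0.420 to 480.1 ± 61.0 CPM, and Ls9g111061.3 from 0.294 ± 0.199 to 92.3 ± 12.1 CPM (SD, n = 3).

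In 22 of the upregulated genes all 0 h libraries held at most 3 reads, and in 14 of the downregulated genes all 7 d libraries did. For such genes a fold is a lower bound against the level of 3 reads per library, which covers counting error only. Ls2g93321.1, described as MADS-box transcription factor 18, belongs to a family of developmental regulators and was at least 54.2-fold higher at 7 d, where it averaged 8.78 CPM. Ls1g53600.2, described as the chloroplastic Linoleate 13S-lipoxygenase 2-1, an enzyme at the start of jasmonate synthesis, had no read at 7 d and was at least 37.1-fold lower than its 5.79 CPM at 0 h. These genes were chosen after their values were seen, as the described genes with the highest bounds in each direction.

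On the log2(scaled CPM + 1) scale, which understates the change of scarce genes, the 5 largest decreases were in genes with no description. They lie on linkage groups for which no descriptions were held. The 0 h libraries of Ls6g44180.1 held 252, 182 and 243 CPM and its 7 d libraries 4.84, 7.73 and 7.84 CPM, a log2 fold change of -4.87 (standard error 0.20, limma adjusted p = 3.19e-06). It was followed by Ls5g131560.3 (-4.44), Ls6g19060.3 (-4.37), Ls5g99920.1 (-4.13) and Ls6g91941.1 (-4.06). The 0 h libraries of Ls6g19060.3 spread widely, at 199, 367 and 393 CPM, yet all lay far above its 7.85, 14.3 and 23.0 CPM at 7 d. On the same scale the described gene Ls1g83221.1, annotated as subunit B of translation initiation factor 3, came next, from 29.9, 26.6 and 39.2 CPM to 1.09, 0.777 and 1.12 CPM (log2 fold change -4.03 ± 0.16, standard error).

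**Figure D4:**
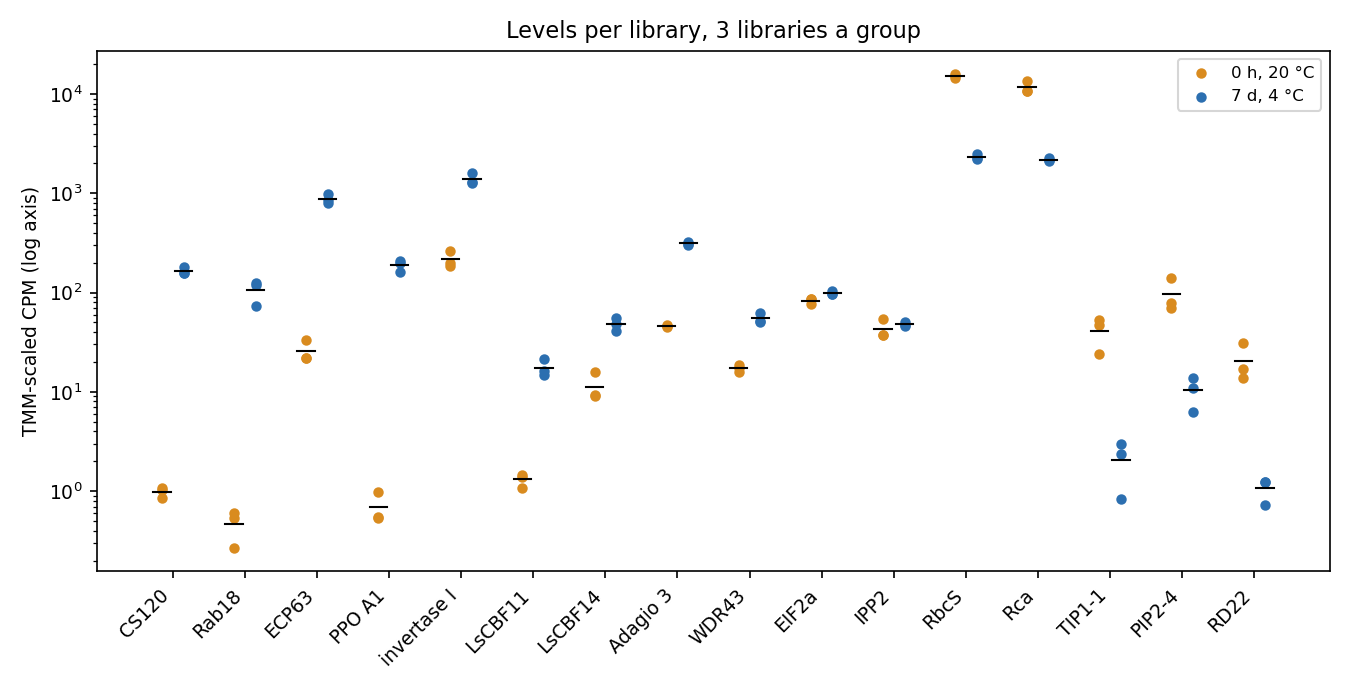
TMM-scaled CPM (log axis) of 16 genes in each library, orange points for 0 h and blue points for 7 d, with black bars at the group means (n = 3). The LsCBF, CS120, Rab18, ECP63, polyphenol oxidase (PPO A1), invertase (Beta-fructofuranosidase soluble isoenzyme I, Ls2g125121.3), Adagio and WDR43 genes are higher at 7 d, the Rubisco small chain (RbcS), Rubisco activase (Rca), aquaporin and RD22 genes are lower, and the reference genes EIF2a and IPP2 were not called.

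Functions were examined through lists drawn from the gene descriptions. The descriptions come from a part of the list of COR genes that the study itself chose on these samples. The counts and medians below are therefore not independent evidence that a function changed. Of the 1997 listed genes held, 1895 were tested, with 338 upregulated and 399 downregulated. Of the 1546 with a description that were tested, 18.7% were upregulated and 21.8% downregulated, and this is the level to hold a list against, besides the 4.31% and 4.92% of all genes. The median log2 fold change of these described genes was -0.21, against 0.01 for all genes tested. More members were upregulated than downregulated in 9 of the 27 lists, and fewer in 17.

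**Figure D5:**
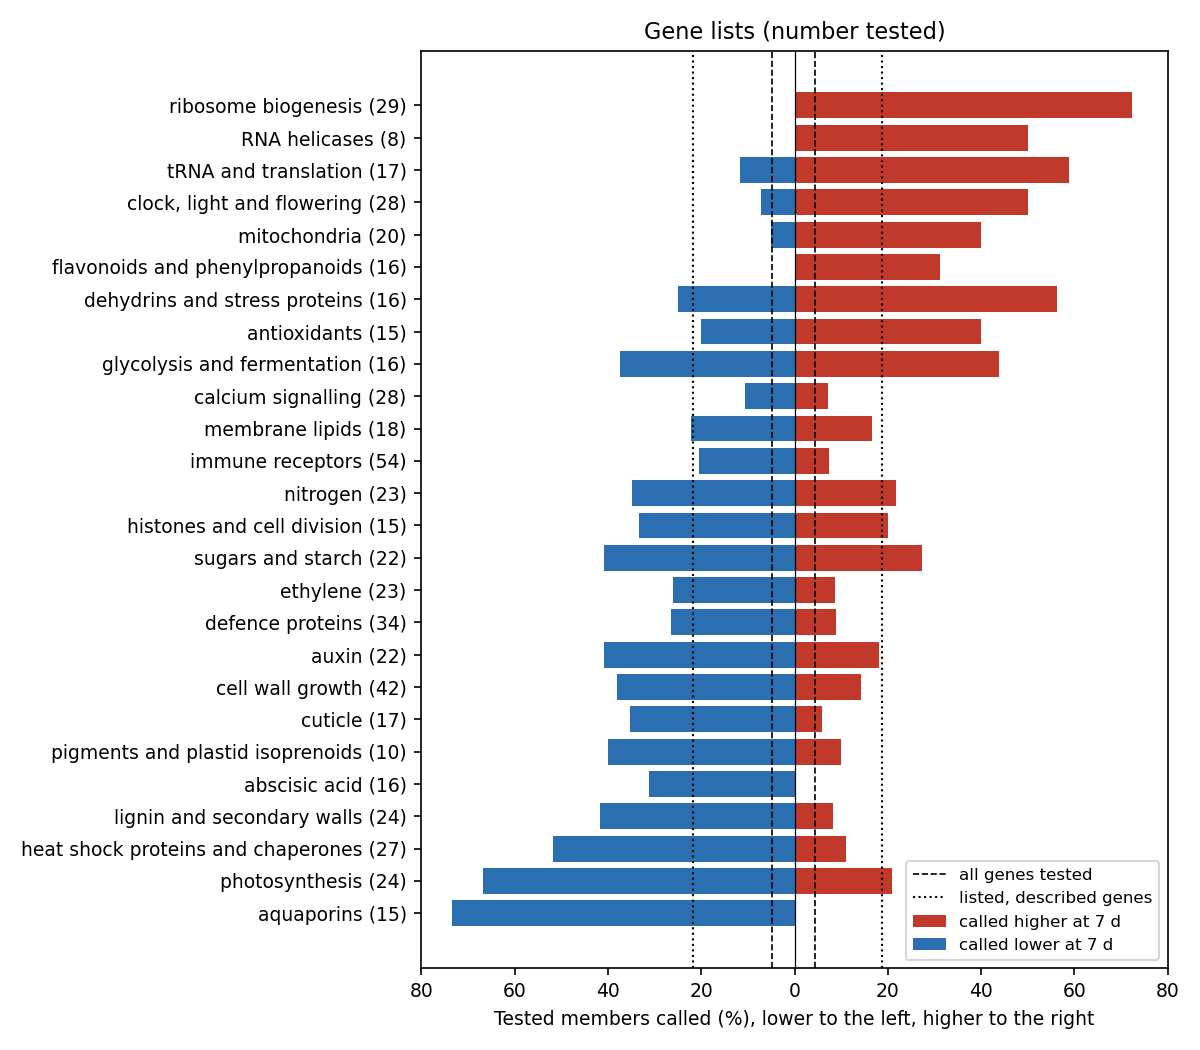
Share (%) of the tested members of 26 gene lists that were upregulated (red, to the right) or downregulated (blue, to the left) at 7 d, with the number tested in brackets. Dashed lines mark the shares over all genes tested (4.31% and 4.92%) and dotted lines those over the listed genes with a description (18.7% and 21.8%). The list for proline has only 2 members, none of them called, and is not drawn.

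Of the 24 photosynthesis genes, 16 were downregulated (66.7%) and 5 upregulated (20.8%, near the 18.7% of the listed genes with a description). Their median log2 fold change was -1.32, against -0.21 for the listed genes with a description and 0.01 for all genes. Together the 24 genes made up 70215, 66105 and 76074 CPM at 0 h and 21448, 20403 and 20361 CPM at 7 d. The Rubisco small chain, the nuclear-encoded subunit of the carbon-fixing enzyme, is the description of 5 genes. All 5 were downregulated (log2 fold changes from -2.71 to -1.35). Only COR genes listed by the study carry descriptions here, so a copy outside that list would not be counted. Ls4g153980.1 was the most abundant gene in the warm. It was at 15318, 14652 and 15762 CPM at 0 h and at 2486, 2275 and 2218 CPM at 7 d, a decrease of 2.71 ± 0.12 (standard error) on the log2 scale with a limma adjusted p of 3.74e-06. Another 4 of them are neighbours on linkage group 2, from Ls2g79501.1 to Ls2g79600.1, and reads of such similar copies may have been shared among them.

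Rubisco activase (Ls2g118741.2), which keeps the enzyme active by removing inhibitory sugar phosphates, was at 10745, 10749 and 13518 CPM at 0 h and at 2177, 2252 and 2124 CPM at 7 d. The 3 described chlorophyll a-b binding genes, whose proteins form the light-harvesting antenna, were all downregulated (log2 fold changes from -2.26 to -1.29). They summed to 6411 to 8330 CPM at 0 h and 2472 to 2690 CPM at 7 d. The 5 upregulated members are described otherwise. Stress enhanced protein 2 (Ls2g67381.1), of a family of proteins related to the antenna, rose from 7.46 ± 1.69 to 30.6 ± 6.29 CPM. The others are the assembly factors RBCX1 (Ls1g129560.2) and PHOTOSYSTEM I ASSEMBLY 2 (Ls1g68280.2), the chaperonin subunit that binds the Rubisco large subunit, and CHLORORESPIRATORY REDUCTION 7. There were 16 downregulated members with each library left out in turn, whereas the upregulated members were 3 without 0 h replicate 3 or with RLE factors and 2 without 7 d replicate 1.

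Of the 10 genes of pigment synthesis 4 were downregulated and 1 upregulated (median -0.92). Phytoene synthase 1 (Ls2g71880.1), the entry enzyme of carotenoid synthesis, fell from 75.2, 66.8 and 64.8 CPM to 16.1, 17.6 and 17.3 CPM, with groups far apart. Divinyl chlorophyllide a 8-vinyl-reductase (Ls3g24840.1), an enzyme of chlorophyll synthesis, fell from 159.8 ± 13.2 to 59.5 ± 0.510 CPM. Tocopherol O-methyltransferase (Ls2g104420.1), which completes vitamin E, was the upregulated member (log2 fold change 1.13 ± 0.12, standard error).

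Not all very abundant genes fell. Among the 10 genes with the highest mean at 0 h, 6 were downregulated and 4 were not called. Ls2g79481.1, with no description, was the second in the warm and the first at 7 d, at 14855, 14192 and 15274 CPM and at 21186, 16990 and 16866 CPM (log2 fold change 0.30, limma adjusted p = 0.0968). Its number comes shortly before those of the Rubisco small chain genes on linkage group 2, and what it encodes is not known here. The undescribed Ls7g34481.1 lost almost as much as the leading Rubisco gene, from 14172 ± 2448 to 2942 ± 343 CPM, and Ls5g6741.1 fell from 8985 ± 1006 to 2908 ± 99.3 CPM (SD, n = 3).

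In the ribosome biogenesis list, whose proteins process ribosomal RNA and assemble ribosomal subunits in the nucleolus, 21 of 29 members were upregulated and none was downregulated. All 29 had a log2 fold change above 0, from 0.51 to 1.61, with a median of 1.10. WD repeat-containing protein 43 (Ls1g33521.1), a processing factor of the small subunit in yeast and animals, was at 18.9, 16.0 and 17.2 CPM at 0 h and at 62.7, 52.3 and 50.3 CPM at 7 d. A subunit of the H/ACA complex (Ls2g112741.1), which guides pseudouridylation of ribosomal RNA, rose from 32.2 to 98.9 CPM, and nucleolar protein 5-2 (Ls1g62020.3) from 86.8 to 250 CPM. These changes are near the threshold of 1, so the count moved with single libraries. It was 12 without 7 d replicate 1, and none of the 29 passed a test against a 2-fold change itself.

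Of the 8 RNA helicases, enzymes that unwind RNA, 4 were upregulated and none was downregulated in limma, while 1 was downregulated in edgeR, in DESeq2, with a pseudocount of 0.1 CPM and without 0 h replicate 3. DEAD-box helicase 13 (Ls2g42041.3) was at 33.2, 38.9 and 28.0 CPM at 0 h and at 75.6, 80.7 and 75.0 CPM at 7 d. The other upregulated helicases lay close to the threshold. With helicase 13 included, 2 of the list were upregulated without 0 h replicate 2, without 7 d replicate 1 or with RLE factors. With upper-quartile factors only 1 was, helicase 13 itself. Of the 17 members of the tRNA and translation list, 10 were upregulated and 2 downregulated (median 1.03). The pseudouridine synthases Ls1g122000.1 and Ls0g761.6, which modify RNA, rose by log2 fold changes of 1.65 and 1.38, and elongation factor 1-alpha (Ls2g109480.3), which brings tRNA to the ribosome, rose from 12.04 ± 1.45 to 43.04 ± 11.8 CPM. The upregulated members were 6 without 0 h replicate 3 or without 7 d replicate 1. The downregulated members were the initiation factor subunit named above and a peptide chain release factor (Ls2g25920.2).

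In the mitochondrial list 8 of 20 members were upregulated and 1 downregulated, or 3 downregulated in edgeR and DESeq2 (median 0.90, or 0.94 with the member at the level of 3 reads set at its bound). An external alternative NAD(P)H dehydrogenase (Ls1g126860.2), which feeds electrons into the respiratory chain without pumping protons, was at 5.89, 6.70 and 6.30 CPM at 0 h and at 23.7, 21.8 and 16.8 CPM at 7 d. Prohibitin-3 (Ls0g11921.3), a scaffold of the inner membrane, rose from 33.2 ± 0.966 to 99.2 ± 19.0 CPM. In contrast, porin 2 of the outer membrane (Ls4g160741.1) was downregulated (log2 fold change -1.29 ± 0.19, standard error).

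In the glycolysis and fermentation list, 7 of 16 members were upregulated and 6 downregulated. Enolase (Ls2g129481.1), an enzyme of lower glycolysis, rose from 17.0, 18.3 and 20.0 CPM to 116, 82.3 and 68.8 CPM, with groups well separated. Cytosolic pyruvate kinase 2 (Ls1g50700.3), which makes pyruvate, rose from 20.7 ± 0.860 to 70.8 ± 10.5 CPM. The plastidial pyruvate kinase 4 (Ls2g135900.1) fell by 1.74 and a hexokinase-like 2 gene (Ls3g84241.1) by 2.44 on the log2 scale. The 2 pyruvate decarboxylase 2 genes, for the first step of ethanol fermentation, moved apart, with Ls2g52260.3 upregulated (1.30) and Ls2g52200.3 downregulated (-1.35).

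The sugars and starch list held 6 upregulated and 9 downregulated members of 22. The acid invertases, which split sucrose into glucose and fructose, differed among themselves. The soluble isoenzyme I gene Ls2g125121.3 was at 186, 199 and 263 CPM at 0 h and at 1610, 1287 and 1273 CPM at 7 d, and had the third largest gain in CPM of all upregulated genes. Another gene with the same description, Ls2g128981.1, fell from 10.1 ± 4.02 to 1.24 ± 0.558 CPM, and the acid beta-fructofuranosidase Ls3g2180.1 from 21.9 ± 11.2 to 1.52 ± 0.281 CPM. The plastidic glucose transporter 3 gene (Ls4g102640.1), of a family that carries glucose across the plastid envelope, rose from 4.48, 3.57 and 3.18 CPM to 35.6, 37.3 and 36.1 CPM. Beta-amylase 3 (Ls3g15861.1), which releases maltose from starch, rose from 9.38 ± 1.28 to 38.4 ± 3.49 CPM. The sugar transporter ERD6-like 16 (Ls3g26081.1) fell from 19.4 ± 5.11 to 2.44 ± 0.350 CPM.

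Of the 16 dehydrins and other stress proteins, 9 were upregulated (56.3%) and 4 downregulated (25%, near the 21.8% of the listed genes with a description). The CS120 gene Ls3g76921.1, named for a dehydrin of cold-hardened wheat, was at 1.03, 0.856 and 1.08 CPM at 0 h and at 157, 158 and 180 CPM at 7 d. Dehydrin Rab18 (Ls3g74801.1), known in Arabidopsis as responsive to abscisic acid, was at 0.270, 0.604 and 0.539 CPM and at 72.9, 121 and 124 CPM. The late embryogenesis abundant gene ECP63 (Ls2g24040.2) reached 983, 802 and 849 CPM from 21.7, 22.0 and 33.5 CPM. The 3 log2 fold changes were 6.38 ± 0.12, 6.15 ± 0.21 and 5.06 ± 0.18 (standard errors), and in each gene every 7 d library was far above every 0 h library.

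The downregulated stress genes carry drought-related names. RD22 is a BURP-domain gene known in Arabidopsis as responsive to dehydration. Its homologue Ls1g48900.1 was at 17.1, 13.8 and 30.8 CPM at 0 h and at 1.25, 1.24 and 0.731 CPM at 7 d, and Ls1g48980.1 fell by 2.34 on the log2 scale. EARLY RESPONSIVE TO DEHYDRATION 15 (Ls2g125820.1), a regulator of abscisic acid responses in Arabidopsis, fell from 237 ± 19.0 to 53.7 ± 6.53 CPM. In the abscisic acid list itself 5 of 16 members were downregulated and none upregulated, with a median of -0.11. Under library-size scaling 3 were downregulated and 2 upregulated and the median was 0.05, and 1 was upregulated without 0 h replicate 3 or without 7 d replicate 2. The receptors PYL6 (Ls2g125581.1) and PYL1 (Ls3g17760.1) and the protein phosphatase 2C 15 gene Ls3g62541.2 were downregulated, with log2 fold changes of -1.47, -1.196 and -1.48. That of PYL6 did not pass without 7 d replicate 1, and 3 members passed without 0 h replicate 2. The proline list holds Ls2g117820.3, the synthase of the pathway, at 75.6 ± 9.24 CPM and 127 ± 7.95 CPM, and a dehydrogenase of proline breakdown (Ls4g107620.1), at 0.736 ± 0.124 and 2.07 ± 0.195 CPM. Neither was called in limma (log2 fold changes 0.75 and 0.82, the second of a gene near 1 CPM), and the dehydrogenase was called upregulated in edgeR (1.48) and DESeq2 and with a pseudocount of 0.1 CPM.

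The 14 LsCBF genes of the study include 11 that are in the table, and 7 of these passed the filter on low values. This filter can be passed through 1 group alone, so the share of them that rose is not a measure of the family. LsCBF7, LsCBF10, LsCBF11, LsCBF12 and LsCBF14 were upregulated, while LsCBF5 and LsCBF9 had log2 fold changes of 0.80 and 0.76 and were not called in limma. Both were called in edgeR and DESeq2 on the recovered reads. LsCBF14 (Ls9g114720.1) had the highest level at 7 d, 55.1, 41.0 and 48.0 CPM, against 9.07, 9.21 and 15.7 CPM at 0 h. LsCBF11 (Ls9g54780.1) was at 1.08, 1.46 and 1.40 CPM at 0 h and at 21.5, 16.1 and 14.9 CPM at 7 d, with a log2 fold change of 2.98 ± 0.16 (standard error, limma adjusted p = 1.20e-05). LsCBF7 (Ls9g54581.2) rose from 4.16, 5.54 and 4.69 CPM to 21.3, 21.04 and 22.6 CPM, with no overlap.

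LsCBF12 (Ls9g54680.3) rose from 0.320 ± 0.283 to 1.87 ± 0.148 CPM. LsCBF10 (Ls9g54860.1) held 2, 1 and 0 reads at 0 h and was at least 10.3-fold higher at 7 d, and LsCBF5 (Ls9g54101.3), with 2 reads in every 0 h library, was at least 5.74-fold higher. LsCBF1, LsCBF3, LsCBF4 and LsCBF8 were not tested, with at most 3, 9, 4 and 4 reads in any of the 6 libraries. LsCBF8, LsCBF9 and LsCBF10 are similar neighbours on linkage group 9, and reads may have been shared among them. The 9 other tested AP2/ERF group III genes, which the study listed by sequence and not by expression, included no called gene in limma and 1 in edgeR, with log2 fold changes from -0.67 to 0.85. A further 6 were not tested, with at most 4 to 21 reads each in any of these libraries.

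Levels at the earlier time-points, from factors computed over all 12 libraries, place the 7 d values in the course of the treatment. LsCBF11 (Ls9g54780.1) averaged 137 CPM after 4 h, then 61.7 CPM after 24 h and finally 17.3 CPM, and the direct difference of 7 d and 24 h was -1.78 ± 0.16 on the log2 scale (standard error, limma adjusted p = 6.36e-06). LsCBF12 and LsCBF10 likewise fell from 24 h to 7 d. LsCBF14 (Ls9g114720.1) was at 31.0 CPM after 4 h and 19.9 CPM after 24 h, and rose to 47.5 CPM at 7 d (1.22 ± 0.21 against 24 h, limma adjusted p = 0.000939). Of all genes tested, 4.11% differed between 7 d and 24 h by the same criteria. CS120 (Ls3g76921.1) fell from a 24 h mean of 1023 CPM to 163 CPM, while Polyphenol oxidase A1 (Ls0g6400.1) rose further, from 46.9 to 186 CPM. Rab18 (300 to 104 CPM) and ECP63 (1943 to 868 CPM) were also lower at 7 d than at 24 h. So were Beta-amylase 3 (151 to 38.0 CPM, after 250 CPM at 4 h) and plastidic glucose transporter 3 (83.8 to 35.9 CPM). Of the 159 named genes, mostly chosen on their 7 d values, 7 were called higher and 41 lower than at 24 h. Ls4g84040.2 was at 967 CPM at 24 h and 1437 CPM at 7 d, a difference that did not pass (adjusted p = 0.0138).

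Of the 28 clock, light and flowering genes 14 were upregulated and 2 downregulated (median 0.99). The hour of sampling is not given in the sources used here, and its part in these values was not tested. Adagio protein 3 (Ls3g106121.1), a blue-light receptor that targets proteins for degradation in the clock and flowering pathways of Arabidopsis, was at 44.9, 45.7 and 47.7 CPM at 0 h and at 321, 305 and 312 CPM at 7 d. The homologue of the UV-B receptor UVR8 (Ls2g118081.1) was at 8.97, 7.502 and 5.17 CPM and at 50.4, 47.8 and 49.2 CPM. LHY (Ls3g140720.1), a morning component of the clock, rose from 6.14 ± 1.40 to 28.3 ± 3.24 CPM, and PRR37 (Ls2g115441.2), a pseudo-response regulator, fell from 133 ± 5.69 to 64.5 ± 3.84 CPM. Under library-size scaling neither of the downregulated members passed, and 1 passed without 7 d replicate 1 or replicate 3.

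Of the 16 flavonoid and phenylpropanoid genes, 5 were upregulated and none was downregulated, with 3 upregulated without 0 h replicate 2. Isoflavone 2-hydroxylase (Ls1g24061.1), a cytochrome P450, rose from 0.972, 1.21 and 1.94 CPM to 22.8, 15.04 and 12.6 CPM. A flavonoid 3-O-glucosyltransferase (Ls3g119900.1), which adds sugar to flavonoids, rose from 3.98 ± 0.434 to 10.9 ± 0.879 CPM. Among the 15 antioxidant genes 6 were upregulated (40%) and 3 downregulated (20%, near the 21.8% of the listed genes with a description). Only 1 was downregulated under library-size scaling or without 0 h replicate 2. The chloroplast Thioredoxin-like 1-1 gene (Ls2g58761.1) went from 0.270, 0.0504 and 0.0539 CPM to 19.5, 19.5 and 20.9 CPM (log2 fold change 4.23 ± 0.13, standard error), while CDSP32 (Ls0g661.1), another chloroplast thioredoxin-like protein, fell from 594 ± 55.7 to 208 ± 7.54 CPM.

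Water channels were the list with the highest share of downregulated members, 11 of 15, and no member was upregulated (median -1.51), though 1 was under library-size scaling. The tonoplast aquaporin TIP1-1 gene Ls1g51360.1 was at 24.2, 46.8 and 53.4 CPM at 0 h and at 0.832, 2.37 and 2.97 CPM at 7 d. The plasma membrane aquaporin PIP2-4 (Ls2g108920.1) was at 70.0, 78.4 and 139 CPM and at 6.29, 13.9 and 10.9 CPM. Their log2 fold changes were -3.80 ± 0.35 and -3.09 ± 0.31 (standard errors). NIP2-1 (Ls3g101560.1), of the subfamily that carries silicon in other plants, fell from 3.81 ± 1.39 to 0.182 ± 0.0672 CPM. With any library left out, 10 to 12 aquaporins were downregulated.

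In the cell wall growth list 16 of 42 members were downregulated and 6 upregulated (median -0.63, or -0.69 with 2 members at their bounds), with 10 and 9 under library-size scaling and 11 upregulated in edgeR. The xyloglucan endotransglucosylase/hydrolase genes Ls3g84840.1 and Ls4g159341.1, whose enzymes cut and rejoin xyloglucan in growing walls, were highest in 0 h replicate 3. Ls3g84840.1 was at 1102, 1175 and 2350 CPM at 0 h and at 340, 328 and 334 CPM at 7 d, so the groups stay apart without that library. Pectate lyase 15 (Ls2g43400.1), which degrades pectin, fell from 429, 487 and 507 CPM to 109, 106 and 94.6 CPM. Expansin-like A1 (Ls3g47800.1), related to proteins that loosen walls, moved the other way, from 2.77 ± 0.304 to 24.0 ± 3.35 CPM.

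In the lignin and secondary wall list 10 of 24 members were downregulated and 2 upregulated (1 without 0 h replicate 1), and 6 of the 8 xylem genes were among those that fell, with log2 fold changes from -1.61 to -0.84 over the 8. Laccase-11 (Ls2g76580.1), which polymerises lignin, fell from 5.41 ± 0.808 to 1.09 ± 0.184 CPM. Of 22 auxin genes 9 were downregulated (40.9%) and 4 upregulated (18.2%, near the 18.7% of the listed genes with a description). SAUR22 (Ls3g45581.1), of a family of small auxin-induced proteins, fell from 6.68 ± 0.970 to 1.40 ± 0.173 CPM. The auxin carrier genes named PIN-LIKES moved in both directions, as Ls2g73961.1 fell from 32.9 ± 9.57 to 5.92 ± 2.71 CPM and Ls2g72981.1 rose from 3.35 ± 0.477 to 15.9 ± 1.63 CPM. The upregulated auxin genes were 2 without 7 d replicate 2. In the cuticle list, which summed to 237 to 299 CPM at 0 h and 190 to 203 CPM at 7 d, 6 of 17 members were downregulated and 1 upregulated, or 2 upregulated in edgeR and DESeq2, under library-size scaling or without 0 h replicate 3. The transcription factor gene SHINE (Ls1g44740.1), a regulator of wax synthesis in Arabidopsis, was the member upregulated with TMM in limma, from 1.84, 0.957 and 0.754 CPM to 9.88, 6.11 and 7.11 CPM.

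The histone and cell division list, which summed to 800 to 950 CPM at 0 h and 660 to 757 CPM at 7 d, had 5 downregulated and 3 upregulated members of 15. The upregulated share, 20%, is near the 18.7% of the listed genes with a description, and the downregulated share was 33.3%. Histone H2B.3 (Ls1g55740.1), a component of the nucleosome, fell from 17.0, 15.6 and 21.1 CPM to 3.59, 3.001 and 3.26 CPM. DNA polymerase epsilon subunit B (Ls2g15241.2), of the replication machinery, rose from 5.96 ± 0.931 to 16.9 ± 1.22 CPM. The part of a change in the make-up of the tissue in the values of the growth, xylem and cell division genes was not tested.

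Of 23 nitrogen genes 8 were downregulated (34.8%) and 5 upregulated (21.7%, near the 18.7% of the listed genes with a description). The high affinity nitrate transporter 2.7 (Ls2g91541.1) was at 1.84, 2.47 and 3.29 CPM at 0 h and at 33.8, 46.7 and 43.7 CPM at 7 d. A gene of the nitrate and peptide transporter family, NRT1/PTR FAMILY 1.2 (Ls1g47261.1), rose from 1.61 ± 0.629 to 30.8 ± 3.22 CPM, while FAMILY 8.1 (Ls1g16521.1) fell from 10.3, 11.6 and 15.7 CPM to 0.780, 0.918 and 0.585 CPM. Cytosolic glutamine synthetase (Ls3g63880.1), which assimilates ammonium, fell from 124 ± 36.9 to 28.6 ± 2.26 CPM. BTB/POZ and TAZ domain-containing protein 4 (Ls4g160860.1) rose from 11.7 ± 0.631 to 113 ± 21.4 CPM.

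Of the 27 heat shock proteins and other chaperones, which fold or protect proteins, 14 were downregulated and 3 upregulated (median -1.05, or -1.08 with 2 members at their bounds). The chloroplast dnaJ 11 gene Ls2g12921.1 fell from 44.9, 56.5 and 53.2 CPM to 9.68, 9.22 and 9.50 CPM. The downregulated members were 9 without 7 d replicate 1 or without a filter on low values and 8 without 7 d replicate 3, and the upregulated members were 0 without 7 d replicate 1. Of 18 membrane lipid genes 3 were upregulated and 4 downregulated. These shares, 16.7% and 22.2%, are near the 18.7% and 21.8% of the listed genes with a description. There were 3 in each direction under library-size scaling, and 8 were downregulated in edgeR and 7 without 0 h replicate 1. A choline/ethanolamine phosphotransferase (Ls2g104520.1), for the last step of phospholipid synthesis, rose from 15.4 ± 1.24 to 43.7 ± 2.90 CPM, and a plastid delta-7 desaturase gene (Ls1g33240.3) fell from 12.2 ± 3.57 to 2.51 ± 0.158 CPM.

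Of 54 immune receptor genes tested, 11 were downregulated and 4 upregulated (median -0.73, with 44 members below 0). These are 20.4% and 7.41%, no more than the 21.8% and 18.7% of the listed genes with a description. The downregulated members were 4 under library-size scaling, 5 without 7 d replicate 1, 7 without a filter on low values and 23 in edgeR, and the upregulated members 2 without 7 d replicate 1 or replicate 3, so the size of this group depends on the scaling, the library and the test. Of 34 defence genes 9 were downregulated and 3 upregulated (26.5% and 8.82%). WRKY70 (Ls2g126920.1), a regulator of salicylic acid responses in Arabidopsis, fell from 4.75, 4.08 and 4.26 CPM to 0.780, 0.565 and 0.292 CPM. Chitinase 4 (Ls3g124781.1), which degrades chitin, rose from 2.11, 2.17 and 3.56 CPM to 30.5, 18.6 and 24.2 CPM. Of 23 ethylene genes 6 were downregulated and 2 upregulated (26.1% and 8.70%). Among the first was a homologue of 1-aminocyclopropane-1-carboxylate oxidase (Ls0g19261.2), from 22.4 ± 2.85 to 3.20 ± 1.18 CPM. Of 28 calcium signalling genes 3 were downregulated and 2 upregulated (10.7% and 7.14%, both below the shares of the listed genes with a description). The balance turned to 1 and 2 under library-size scaling.

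The genes the study used to scale qRT-PCR did not pass the test. IPP2 (Ls2g17540.1), of isoprenoid synthesis, was at 37.3, 37.7 and 54.1 CPM at 0 h and at 50.1, 46.4 and 46.6 CPM at 7 d, with overlapping groups (log2 fold change 0.17 ± 0.16, limma adjusted p = 0.437; two-sided exact permutation p = 0.4). EIF2a (Ls6g95581.1), a translation initiation factor, was at 85.4, 85.6 and 76.5 CPM and at 105, 96.1 and 95.7 CPM. Its groups did not overlap, but the log2 fold change was 0.26 ± 0.12 (standard error, limma adjusted p = 0.110; exact permutation p = 0.1).

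Called genes lay on all linkage groups. The share upregulated ran from 3.35% of the genes tested on linkage group 1 to 5.28% on linkage group 2, and the share downregulated from 4.25% among the sequences outside the linkage groups to 5.54% on linkage group 2. Counting along the gene numbers, there were 5 runs of 4 neighbouring tested genes that were all called in the same direction, and no longer run of called genes. They include the described Rubisco small chain genes on linkage group 2, all downregulated, and LsCBF7, LsCBF12, LsCBF11 and LsCBF10 on linkage group 9, all upregulated. LsCBF10 and LsCBF12 would not have passed the filter on low values through their 0 h libraries alone, so their direction in this run was largely fixed. The number of runs was not tested.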

How the data were processed

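Above-ground tissue of 'Salinas' lettuce was sampled at 0 h and after 7 d at 4 °C, with 3 biological replicates each. Paired-end reads were aligned by the authors to version 8 of the lettuce genome (STAR) and assigned to genes (featureCounts), and the deposited table gives CPM for 23933 genes. Settings for strand and for reads with several positions are not given in the sources used here. The values of a library add up to 1000000. Divided by the CPM of a single read, 100% of them came out whole (tolerance 0.01), and these whole reads were recovered.

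TMM, RLE and upper-quartile factors were computed on these reads with edgeR 4.0.16. Genes with at least 0.5 CPM in 2 of the 6 libraries were tested with limma 3.58.1 (lmFit, eBayes) in R 4.3.3 on log2(CPM divided by the TMM factor + 1), with p-values adjusted over all genes tested. Reads-based tests were edgeR and DESeq2 1.42.0. The sources used here do not say whether replicate numbers pair the samples. Deviations of same-numbered libraries correlated at -0.06, 0.16 and -0.08, and those of other pairs at -0.16 to 0.14. With 3 libraries a group this cannot settle the question. The reported fit has no block (a fit with the replicate number as a block was an alternative). Genes are described by words in the COR gene list of the study, of which linkage groups 0 to 3 and part of 4 were used. Named genes are the LsCBF and reference genes, up to 3 called members per list and direction, the 5 largest changes and gains each way and the 10 most abundant genes per group. Other names in the text were chosen after their values were seen, namely those of called list members that complete a count. The members, lists and tests were chosen with earlier results of these data known. The steps were tested on simulated data. The gene table of the reference matched 0 IDs, so no coordinates or sequences are given.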

Additional observations from a re-analysis of the deposited data

Results flagged for a closer look

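For the 7 tested LsCBF genes and the 5 largest rises and 5 largest falls, the levels at 7 d were also set against those at 24 h, by limma over 12 libraries at the thresholds used throughout. The difference passed in 8 of these 17 genes, and in 48 of all 159 named genes, of which 7 were higher and 41 lower at 7 d. Over all genes tested the share was 4.11%. Most named genes were chosen on their 7 d values, which this difference uses again, so the counts do not measure how often genes differ. On the log2 scale, 7 d minus 24 h was -1.72 for LsCBF10 (Ls9g54860.1), -1.78 for LsCBF11 (Ls9g54780.1), -2.49 for LsCBF12 (Ls9g54680.3) and 1.22 for LsCBF14 (Ls9g114720.1). It was -2.65 for the CS120 gene Ls3g76921.1, 1.96 for Polyphenol oxidase A1 (Ls0g6400.1), -3.26 for Ls6g44180.1 (78.2 CPM at 24 h) and -2.40 for Ls5g131560.3 (20.8 CPM at 24 h). Outlying samples were not sought, since groups of 3 are too small for that.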

How the results depend on the processing

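The counts of upregulated and downregulated genes (936 and 1069) stayed within 1.5 times under RLE and upper-quartile factors, a pseudocount of 0.1 CPM, no filter or a stricter filter, all 12 libraries in the fit, a variance trend, an adjusted p of at most 0.05 and edgeR. Under library-size scaling 1482 genes were upregulated. With DESeq2 1706 were downregulated. A test against a 2-fold change left 112 and 99 genes, and 51 of the 147 called named genes. Besides ribosome biogenesis, it left no upregulated member in the helicase, tRNA and translation and mitochondrial lists. No downregulated member passed it in the lignin, auxin and cuticle lists, while 5 of 16 photosynthesis genes and 3 of 11 aquaporins did. With single libraries left out, 789 to 987 genes were upregulated and 919 to 1183 downregulated, 133 to 141 of the 147 named calls passed, 9 lists had more upregulated than downregulated members each time, and the difference in the share of the 20 most abundant genes was -6.05 to -5.55 percentage points. Without 0 h replicate 3 the counts were 933 and 1051.

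The median log2 fold change (0.01) was held against the SD of the libraries' median deviations from their group means, 0.00859. That SD was taken on TMM-scaled values, which the scaling draws together, so it is a narrow yardstick. The median moved by more than it under library-size scaling (0.1614), RLE (-0.0034) and upper-quartile factors (-0.0209) and with no filter (0). It also did with all 12 libraries (0.0214), edgeR (0.0016) and DESeq2 (-0.0167), and was 0.0110 to 0.0188 with single libraries left out. No named gene turned its direction, and the cause of the other shifts was not tested. With the replicate number as a block, 930 genes were upregulated and 1032 downregulated, and all 147 named calls passed. At this depth, levels under 3 reads (0.116 to 0.160 CPM) could not be told from 0.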
